A study of Mus musculus with 6 samples.

Results

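The genes described here are 40 genes of cell division, chosen by name and found among the 18560 genes of the count table. They fall into 31 genes that act in mitosis and 9 genes that act in DNA replication. Their RNA was followed through 51426 annotated cells of the mouse olfactory bulb, in 38 clusters of the whole bulb and 18 clusters into which the authors split the neurons. The cells came from 6 libraries, 2 per condition, and each library held the bulbs of 3 pooled C57BL/6NJ mice, 14 weeks old. The naris occluded libraries came from the bulb behind a plugged nostril after 6 weeks, and the trained libraries from mice that had learned for 6 weeks to tell odors apart. Trained mice were deprived of water and worked for a water reward, which the study does not state for the others. Learning and water restriction therefore cannot be told apart in what is called training below. The labels describe the control libraries as mice without manipulation and the study calls them naive, although 1 passage of its text names the open side of occluded mice as the control. Xist, the RNA of the inactive X chromosome, had 0 to 5 UMIs in each replicate 1 and 20000 to 27904 in each replicate 2, which marks replicate 1 as male and replicate 2 as female, so a difference between replicates is also a difference between sexes, and p-values measure the spread between pools of mice. Bulbs were taken with some surrounding tissue and dissociated with papain, so cells of the olfactory epithelium can be present.

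A cell that divides first copies its DNA and then separates the copies. Replication needs the MCM helicase, which opens the double helix, the sliding clamp Pcna, and enzymes that make nucleotides (Tyms, Rrm2, Tk1). Mitosis needs cyclin B with its kinase Cdk1, the kinetochore proteins that tie chromosomes to the spindle, the motors that build the spindle, and the proteins that pinch the cell apart. Genes of mitosis are transcribed late in the cycle and their RNAs are removed after division, so a cell caught with many of them is close to or in mitosis. In the adult bulb, new interneurons arrive as neuroblasts from the subventricular zone through the rostral migratory stream. Some of these still divide on the way, as do oligodendrocyte precursors. The question asked of these genes was which cell types held their RNA and whether occlusion or training shifted it.

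The libraries held 11841160 to 17065083 unique molecular identifiers (UMIs, 1 per RNA molecule counted) each, with a median of 1028 to 1723.5 per cell. The median mitochondrial share of a cell's UMIs was 9.25% to 14.4%. All annotated cells together held 7940 UMIs of the 31 mitosis genes and 6336 of the 9 replication genes. Levels are given as CPM, the UMIs of a gene per 1000000 UMIs of the same cells, and intervals cover counting error only. Barcodes that occurred in more than 1 library belonged to 2956 annotated cells, and 7 of the 105 cells described next were among them. Without these 2956 cells the number of genes of the list called was the same as with them in every population and comparison tested below.

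The promoters of the mitosis genes shared motifs that the choice of genes did not use. RefSeq promoters (GRCm38.p6, the coordinates of mm10) from 250 bases before to 50 after the start were found for 25 of the 31 mitosis genes and 8 of the 9 replication genes. Counts are of genes, and a gene counted when any of its promoters in the table held the motif. The CHR element TTTGAA is known from genes transcribed late in the cycle. It occurred on either strand for 20 of 25 mitosis genes (80%), 1 of 8 replication genes (12.5%) and 20.2% of all 27025 genes. The CCAAT box, the letters CCAAT, occurred for 23 of 25 mitosis genes (92%), 6 of 8 replication genes (75%) and 41.1% of all genes. Both motifs lay within 40 bases of each other for 14 of 25 mitosis genes (56%) and 2.85% of all. The E2F site TTTGGCGC occurred for 0 of 25 mitosis genes, 3 of 8 replication genes (37.5%) and 0.585% of all. Matches may share bases, as in Ube2c, where CCAAT and its reverse complement overlap, and a match is a description of the sequence only. Below are the 200 bases before the start of 6 genes on which the results turn, read 5′ to 3′ on the gene's strand, from the start in the promoter table, with the CHR element, the CCAAT box and the E2F site, on either strand, in capitals. Top2a, Ube2c, Cdc20 and Ccnb1 are shown as mitosis genes that changed in immature neurons, Mki67 as a mitosis gene with a pattern of its own, and Mcm6 as a replication gene.
Top2a (chr11:99024190-99024389, minus strand): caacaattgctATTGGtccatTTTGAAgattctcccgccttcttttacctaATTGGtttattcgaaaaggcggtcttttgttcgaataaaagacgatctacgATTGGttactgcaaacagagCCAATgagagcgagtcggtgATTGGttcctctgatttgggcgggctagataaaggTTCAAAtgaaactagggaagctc
Ube2c (chr2:164769729-164769928, plus strand): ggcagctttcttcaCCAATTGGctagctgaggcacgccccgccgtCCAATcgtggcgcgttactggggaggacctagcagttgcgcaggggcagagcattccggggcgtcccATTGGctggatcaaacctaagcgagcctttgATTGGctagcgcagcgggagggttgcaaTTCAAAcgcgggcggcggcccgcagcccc
Cdc20 (chr4:118437344-118437543, minus strand): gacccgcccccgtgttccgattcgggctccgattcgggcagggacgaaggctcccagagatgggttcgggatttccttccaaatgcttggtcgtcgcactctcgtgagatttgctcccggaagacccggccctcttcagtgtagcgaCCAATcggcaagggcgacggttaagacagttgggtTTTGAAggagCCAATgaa
Ccnb1 (chr13:100786487-100786686, minus strand): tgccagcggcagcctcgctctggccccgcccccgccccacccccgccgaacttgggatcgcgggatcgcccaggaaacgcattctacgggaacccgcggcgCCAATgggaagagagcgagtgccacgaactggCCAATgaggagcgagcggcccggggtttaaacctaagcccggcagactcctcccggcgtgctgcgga
Mki67 (chr7:135716380-135716579, minus strand): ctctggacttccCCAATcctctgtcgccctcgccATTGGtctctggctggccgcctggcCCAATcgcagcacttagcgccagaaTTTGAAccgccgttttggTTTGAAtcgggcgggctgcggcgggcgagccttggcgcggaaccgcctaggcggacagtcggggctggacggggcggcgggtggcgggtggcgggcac
Mcm6 (chr1:128359706-128359905, minus strand): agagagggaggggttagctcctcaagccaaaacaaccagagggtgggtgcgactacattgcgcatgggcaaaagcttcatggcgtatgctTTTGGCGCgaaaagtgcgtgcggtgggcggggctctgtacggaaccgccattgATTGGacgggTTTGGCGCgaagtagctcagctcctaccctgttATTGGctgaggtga
Ube2c and Cdc20 each held 1 TTTGAA within 30 bases of the start, Top2a and Mki67 held 2, and Ccnb1 held CCAAT boxes without TTTGAA in this window. Mcm6 held 2 TTTGGCGC sites and no TTTGAA. The outermost limits of Mki67 and Top2a in RefSeq reach past this start, so 71 and 10 of their 200 bases lie inside the gene, and 0 for the other 4.

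RNA of the mitosis genes was rare and sat in few cells. Of the 51426 cells, 47561 (92.5%) had no UMI of any of the 31 genes and 3537 had a UMI of a single gene. In 823 of those 3537 cells (23.3%) that single gene was Mki67, the source of the Ki-67 antigen used to mark cycling cells. Fewer cells had several different mitosis genes. There were 223 cells at 2 genes, 23 at 3, 5 at 4, 14 at 5 to 9 and 63 at 10 or more. The most in 1 cell was 29 genes. The numbers fell without a break from none to 4 genes, and the 28 cells with 3 or 4 genes lie at the end of this fall. A cell with at least 3 different mitosis genes is called a cell with mitotic RNA below, and 105 cells met this (23 and 22 of them from controls, 21 and 11 from naris occluded mice, 20 and 8 from trained mice). These 105 cells, 0.204% of all (95% exact binomial interval 0.167 to 0.247%), held 48% of the mitosis UMIs. They were deeper than other cells, with a median of 4944 UMIs against 1354 over all cells, so the shares compared between conditions below use cells thinned to 1000 UMIs.

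**Figure D1:**
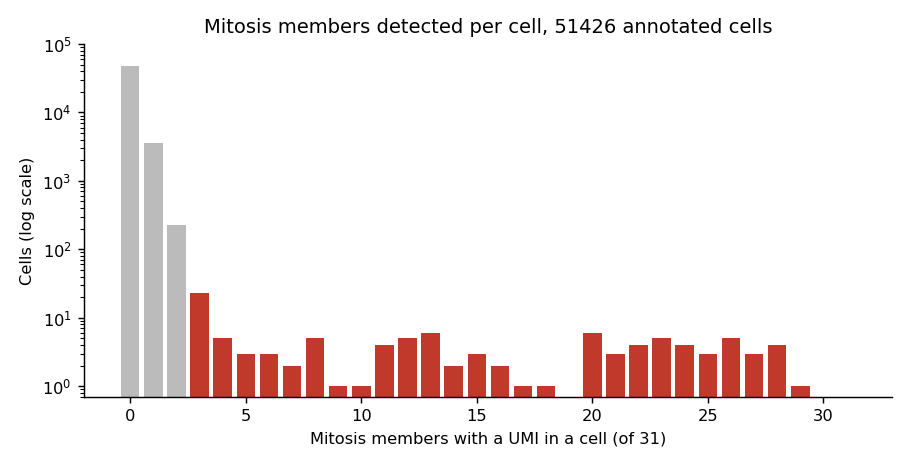
Number of cells (vertical axis, log scale) by how many of the 31 mitosis genes had a UMI in the cell (horizontal axis), over all 51426 annotated cells. Grey bars are cells with fewer than 3 genes and red bars cells with 3 or more. After a steep fall from 47561 cells with none to 5 cells with 4 genes, 63 cells spread between 10 and 29 genes.

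Replication RNA was higher in cells with more mitotic RNA. The 9 replication genes summed to 64.2 CPM in cells with no mitosis gene, 76 CPM with 1, 129 CPM with 2, 669 CPM with 3 to 9 and 1295 CPM with 10 or more. Both sums come from the same cells, so this is a description across cells. Of 79 cells with at least 3 different replication genes, 47 also had mitotic RNA and 25 had none or 1 of the mitosis genes. Of the 79 cells, those without mitotic RNA lay mainly in oligodendrocyte precursors (10 cells) and immature neurons (8 cells). Replication genes were also found widely outside such cells. Pcna, the replication clamp that also serves DNA repair, had 2993 UMIs, the most of the 40 genes, and 3.44% of them lay in cells with mitotic RNA. Tk1, thymidine kinase, and Rrm2, a subunit of ribonucleotide reductase, were closer to the mitosis genes, with 72.6% and 44.9% of their UMIs in such cells.

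The mitosis genes differed widely in how far they were restricted to these cells. For each gene, a cell counted when at least 3 other mitosis genes had a UMI, so the gene itself did not choose the cell. Hmmr, a spindle protein, had 92.9% of its UMIs in such cells, Bub1, a checkpoint kinase, 91.2%, and Top2a, the topoisomerase that untangles DNA, 89.5%. The median over the 31 genes was 52.6%. At the other end stood Mki67 with 17%, Racgap1, a regulator of cell cleavage, with 16.6%, and Bub1b, another checkpoint protein, with 13.2%. The median was 9.31% for the 9 replication genes. Among other genes of the cycle taken from lists of the same kind, the median was 25.3% for 70 further mitosis genes, 5.7% for 59 further replication genes, 2.13% for 10 genes of the cyclin D step and 1.22% for 18 genes that brake the cycle.

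Cells with mitotic RNA came from a handful of cell types. Among the neuronal subclusters and the clusters other than neurons, the largest number, 35 of 3910, lay in the cluster of immature neurons n04-Immature (0.895%, interval 0.624 to 1.24%), and 26 of these 35 had at least 10 mitosis genes. By share, oligodendrocyte precursors (OPC) were highest among these clusters, with 16 of 397 cells (4.03%, interval 2.32 to 6.46%). In the annotation of the whole bulb the neuron cluster N3, of which 448 of 473 cells are n04 cells, had 20 (4.23%, interval 2.6 to 6.45%). The monocyte cluster had 17 of 623 cells (2.73%), red blood cells (RBCs) 6 of 219 (2.74%), macrophages 4 of 572 (0.699%) and the 3 microglia clusters 12 of 4001 (0.3%). The intervals of the OPC, monocyte and red blood cell shares overlapped. Olfactory ensheathing cells, the glia that wrap the olfactory nerve, had 2 of 11551 cells. None was found among 3608 cells of the granule cell cluster n07-GC-2 (a count of 0, taken as 3 cells, allows up to 0.0831%), 3130 of the astrocyte cluster Astro1 (0.0958%), 2524 of the endothelial cluster EC1 (0.119%), 2085 of n06-Transition (0.144%), 1914 of n03-GC-1 (0.157%) or 1200 olfactory sensory neurons (0.25%). These limits hold for cells with UMIs of 3 mitosis genes at the depth of each cluster, and n07-GC-2 and n06-Transition were shallow, with a median of 882 and 730 UMIs. The remaining neurons of cluster N11, which the authors' second annotation did not place, had 8 such cells of 660. They differed from the rest, with a median of 3 mitosis genes, none with 10, and a median of 14987.5 UMIs. Both the depth of these 8 cells and their few mitosis genes moved together, and the part of depth was not tested.

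The summed level of the 31 mitosis genes was high in the same few types. Over 6 libraries it was 2004 ± 1779 CPM (SD) in cluster N3 of the whole bulb, which held 14.1% of all mitosis UMIs. Among the neuronal subclusters and the clusters other than neurons it was 458 ± 328 CPM in OPC, 438 ± 423 in monocytes, 412 ± 349 in red blood cells and 338 ± 196 in n04-Immature. The last 4 did not differ beyond the spread between their libraries. Microglia cluster MicroG1 followed with 209 ± 218 CPM and macrophages with 156 ± 203 CPM. The lowest clusters were olfactory sensory neurons with 12.5 ± 11.3 CPM and the astrocyte cluster Astro3 with 20.1 ± 9.53 CPM. Because n04-Immature was large, it held 26.5% of all mitosis UMIs, against 8.3% in monocytes, 7.25% in OPC and 4.09% in red blood cells. A level in the middle could come without any cell with mitotic RNA. The cluster n07-GC-2 reached 128 ± 7.38 CPM and n06-Transition 129 ± 23.5 CPM, mainly through Mki67, which is described further on. By gene, N3 had the highest level of all 31 mitosis genes over the 56 clusters of both annotations. N3 was shallow, with a median of 774 UMIs per cell against 2901 in OPC. In a shallow cluster the same number of UMIs of a gene gives a higher CPM. Of the mitosis UMIs of N3, 98.3% lay in its 20 cells with mitotic RNA, which the same genes chose. The part of depth in its level was not tested. OPC had the highest level of 14 of the 31 mitosis genes, monocytes of 9 and red blood cells of 4, among the neuronal subclusters and the clusters other than neurons. The 4 others were highest in Astro2 (Aurka), n02-PGC-1 (Racgap1), n06-Transition (Bub1b) and n07-GC-2 (Mki67).

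**Figure D2:**
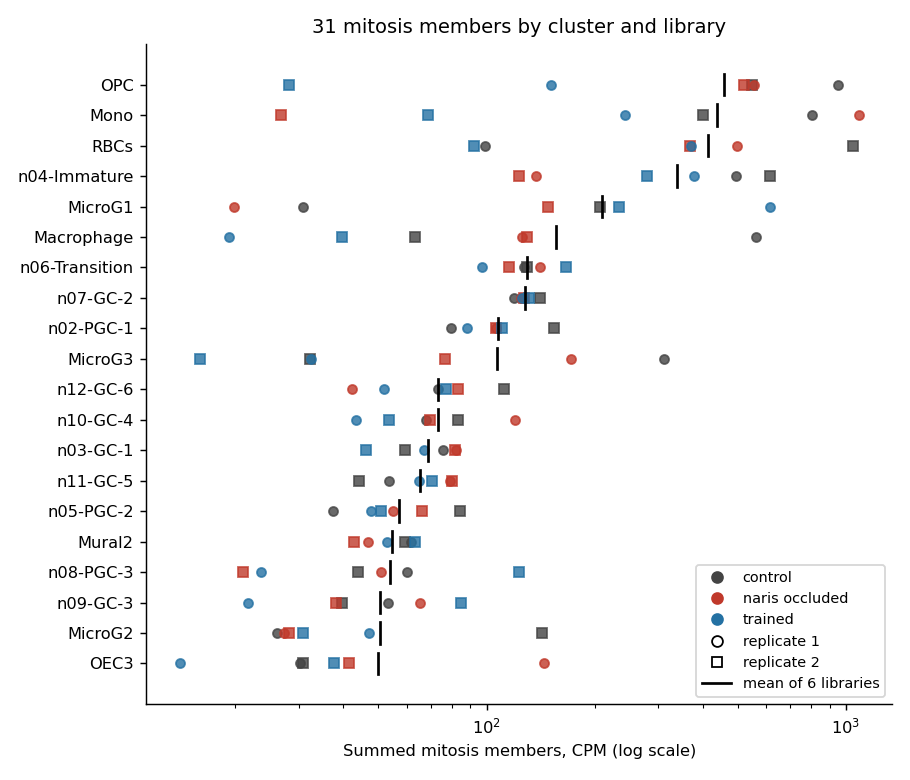
Summed CPM of the 31 mitosis genes (horizontal axis, log scale) in the 20 clusters of at least 200 cells with the highest mean, among the neuronal subclusters and the clusters other than neurons. Each point is a library, coloured by condition with circles for replicate 1 and squares for replicate 2, and the black line is the mean of 6 libraries. In OPC, the monocyte cluster and n04-Immature the libraries spread widely, while the 6 libraries of n07-GC-2 lie between 119 and 141 CPM.

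Genes outside the list were ranked by how like the summed mitosis genes their level was over 42 clusters, of 14438 genes considered. The genes most like it included 2810417H13Rik with a Pearson r of 0.778, Shmt1 with 0.717, Smc2 with 0.677 and Asf1b with 0.676, on log2(CPM + 1). Clusters share libraries and differ in depth, so these values describe the pattern only. 2810417H13Rik had 73.5 CPM in monocytes, 48.7 in n04-Immature and 41.4 in OPC, against 13.4 in n07-GC-2. The 40 genes of the list had an r of 0.107 (Mcm6) to 0.812 with the sum of the other mitosis genes.

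The 35 cells with mitotic RNA in n04-Immature had more RNA of some genes of forebrain interneuron progenitors than the other n04 cells, but not of all. Dlx2, a homeobox gene of these progenitors, had a UMI in 32 of the 35 cells, and its level was higher than in the other n04 cells in 6 of 6 libraries, 687 ± 126 CPM (SD) against 439 ± 65.9. Egfr, a growth factor receptor of transit-amplifying progenitors, was at 45.7 ± 28.5 CPM in cells with mitotic RNA against 3.46 ± 2.08 CPM in the others, higher in 5 of 6 libraries. Dlx1, a relative of Dlx2, was at 739 ± 261 against 665 ± 71.1 CPM and higher in 4 of 6 libraries, and Hes5, a target of Notch signalling, at 41.2 ± 64.1 against 40.6 ± 10.2 CPM and higher in 2 of 6. Of the genes of later neuroblasts, Dcx, Stmn2, Tubb3, Sox4 and Igfbpl1 were lower in the cells with mitotic RNA in 6 of 6 libraries, and Cd24a in 5 of 6, at 944 ± 153 against 1112 ± 104 CPM. Dcx, the microtubule protein of migrating neuroblasts, was at 434 ± 171 against 922 ± 50.2 CPM, and Stmn2 at 662 ± 337 against 1609 ± 113 CPM. Sox11 was higher in the cells with mitotic RNA in 5 of 6 libraries, at 2469 ± 420 against 2072 ± 93.6 CPM. Ccnd2, the cyclin D of neuronal progenitors, stood at 4032 ± 1249 CPM against 711 ± 165, and Btg1, a gene that restrains proliferation, at 610 ± 192 against 1803 ± 115, both in the same direction in 6 of 6 libraries. Inhibitors of the cyclin kinases did not go in 1 direction in all libraries. Cdkn1a was at 43.6 ± 68.6 against 19.1 ± 10 CPM and higher in 2 of 6 libraries, Cdkn1b at 107 ± 69.8 against 141 ± 15.3 CPM and higher in 2, and Cdkn1c at 12.8 ± 31.4 against 14.2 ± 3.81 CPM and higher in 1. The cells were chosen by other genes than these, but they are the same cells, so no test was made. The libraries held 7 and 9, 4 and 4, and 5 and 6 such cells. For genes of low level, such as Egfr, Hes5, Cdkn1a and Cdkn1c, 1 UMI can set the direction in a library.

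Defining markers of the other dividing types were at 0 in these 35 cells. Pdgfra and Cspg4 (OPC), P2ry12 and Tmem119 (microglia), Ccr2 and Ly6c2 (monocytes) and Hba-a1 (red blood cells) had 0 UMIs in all 35 cells. Of the 8 markers listed for the olfactory epithelium, where other neurons are born throughout life, Omp, Gng8, Neurod1, Ebf2, Trp63 and Cnga2 had 0 UMIs, Lhx2 had 6 UMIs in 5 cells and Gap43, which immature neurons of both places use, 21 UMIs in 12 cells. Mbp, a myelin gene, was at 453 CPM in these cells and at 873 CPM in the other n04 cells.

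In the other types the cells with mitotic RNA also had UMIs of their type's markers, at levels that differed from those of the other cells. Cd74, P2ry12 and Hba-a1 were lower in them. Of the 16 OPC cells, 15 had Pdgfra, at 1473 CPM against 728 in other OPC, while Gpr17, a marker of precursors committed to maturation, was at 208 against 883 CPM. Of the 17 cells in the monocyte cluster, 12 had Ly6c2 and 10 had Plac8, genes of young monocytes, at 2121 and 1253 CPM against 212 and 196 CPM in the others. Cd74, of antigen-presenting cells, was at 2129 against 13738 CPM in the same cluster. All 12 microglia had C1qa, and P2ry12 was at 949 against 1773 CPM. Microglia had 23 UMIs of Mki67 in the 12 cells with mitotic RNA and 0 in the other 3989 cells, though Mki67 counted toward their choice. All 4 macrophages had Pf4, and all 6 red blood cells had Hba-a1, at 92723 CPM against 204124 in the others, with Cd24a, a surface protein of young cells of several lineages, at 3637 against 247 CPM. These values pool 4 to 17 cells per type and carry no test.

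**Figure D3:**
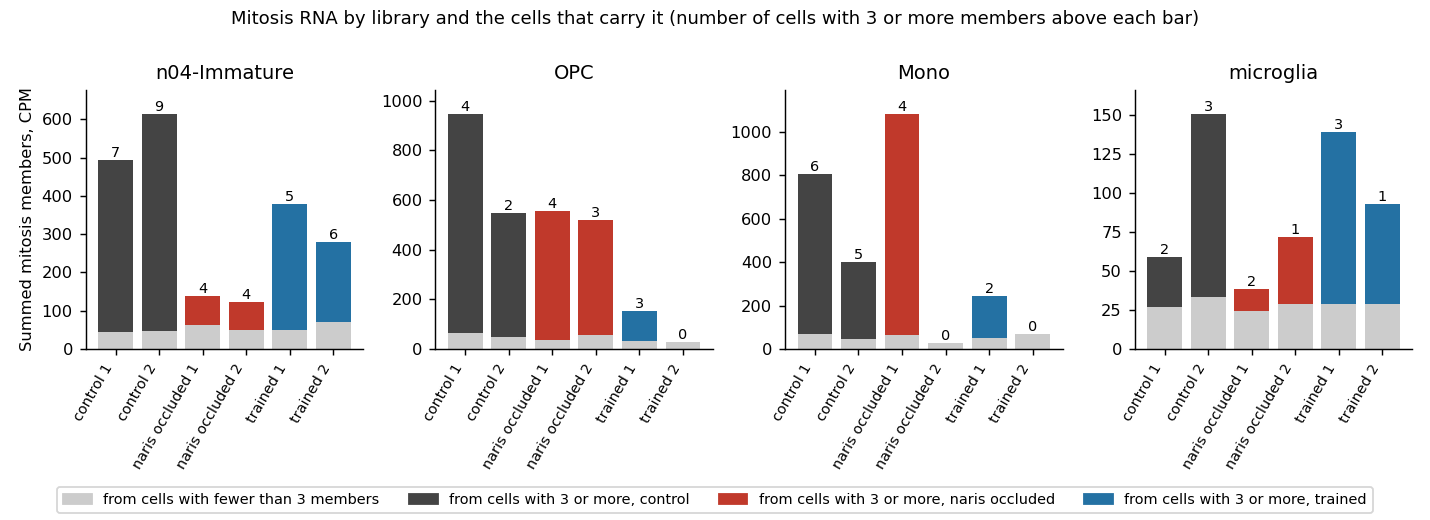
Summed mitosis genes in CPM (vertical axis, separate scale per panel) in each of the 6 libraries for n04-Immature, OPC, monocytes and the 3 microglia clusters. The grey part of a bar comes from cells with fewer than 3 mitosis genes and the coloured part from cells with 3 or more, whose number stands above the bar. In n04-Immature the grey part lies between 43.8 and 69.7 CPM in all libraries and the coloured part between 72.8 and 567 CPM, but the cells were split by the same genes, which by itself keeps the grey part low.

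Mitotic RNA in immature neurons was lowest after naris occlusion. The summed mitosis genes in n04-Immature were at 493 and 615 CPM in the control libraries, 138 and 123 CPM in the naris occluded and 379 and 279 CPM in the trained. The 3 conditions did not overlap, with controls highest, trained in between and naris occluded lowest. Cells with mitotic RNA contributed 449 and 567 CPM in the controls, 76.1 and 72.8 CPM after occlusion and 329 and 209 CPM after training. The other n04 cells contributed 43.8 and 47.4, 61.6 and 50.3, and 49.2 and 69.7 CPM. The cells were split by the same genes that are summed, so the split does not show in which cells the difference lay. Such cells numbered 7 and 9 in the controls, 4 and 4 in the naris occluded and 5 and 6 in the trained libraries, of 429 to 939 n04 cells per library. On average such a cell held 22.3 and 25 mitosis UMIs after occlusion, 77.6 and 49.2 in the controls and 68.2 and 38.5 in the trained libraries, each a mean over 4 to 9 cells. Without the cells of shared barcodes the sums were 524 and 580 CPM in the controls, 144 and 128 CPM after occlusion and 399 and 283 CPM after training, from 7 and 8, 4 and 4, and 5 and 5 cells with mitotic RNA. The n04 cells numbered 721 and 429 in the controls, 563 and 939 after occlusion and 696 and 562 after training. All annotated cells numbered 9997 and 7712, 7288 and 9154, and 10570 and 6705 in the same order. The study reports that the proportion of cells in this cluster rose with deprivation and fell with training. It compared adult-born neurons, by chi-square tests on pooled cells. That proportion was not computed here, and the counts above do not show its fall with training. Fewer dividing cells, less RNA per dividing cell and more n04 cells that do not divide all enter the sum. The number of other n04 cells also enters the share of cells with mitotic RNA. The part of each was not tested.

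At equal depth the share of cells with mitotic RNA pointed the same way with wide intervals. After thinning to 1000 UMIs it was 1.12% (6 of 536 cells, exact binomial 95% interval 0.412 to 2.42%) and 2.03% (7 of 345, 0.82 to 4.14%) in the controls. It was 0.203% (1 of 492, 0.00515 to 1.13%) and 0.281% (2 of 713, 0.034 to 1.01%) in the naris occluded, and 1% (5 of 500, 0.325 to 2.32%) and 0.637% (3 of 471, 0.132 to 1.85%) in the trained libraries. The group means were 1.57 ± 0.643% (SD, n = 2), 0.242 ± 0.0546% and 0.818 ± 0.257%. Without thinning they were 1.53 ± 0.797%, 0.568 ± 0.201% and 0.893 ± 0.247%. Unthinned, the trained libraries (0.718% and 1.07%) overlapped the controls (0.971% and 2.1%), and the lower of them lay just above the higher naris occluded one (0.71%, the other 0.426%).

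The gene by gene test called 7 mitosis genes lower after occlusion in n04-Immature. Counts were summed per library and compared with edgeR's quasi-likelihood test, adjusted over all 9312 genes tested in this cluster by the Benjamini-Hochberg method, with a call at an adjusted p under 0.05. Of all genes tested, 10 (0.107%) were called, all lower, and 7 of them were among the 27 genes of the list that passed the filter on low counts. At an unadjusted p under 0.05 there were 22 of the 27, against 4.4% of all genes tested. The list was filtered on the same counts, so all 40 genes were also read without a filter. Of the 31 mitosis genes, 28 had both naris occluded libraries below both controls and none had both above, against 12.2% of all 16408 genes with a UMI lower and 16.6% higher. The 7 calls, and the 31 genes counted without a filter, share the same 35 cells and are not independent of one another.

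Ube2c, the enzyme that passes ubiquitin to cyclins for their destruction, was at 57.1 and 69.2 CPM in the controls, 2.57 and 11.7 CPM after occlusion and 34.8 and 22.6 CPM after training. Its log2 fold change after occlusion was −3.06 ± 0.37 (SE; edgeR, adjusted p = 0.000821), and −2.40 without naris occluded 1 and −4.59 without naris occluded 2. Cdc20, which activates the same destruction step, had 25.6 and 20.5 CPM in the controls, 3.42 and 2.19 after occlusion and 15.5 and 11.8 after training, a log2 fold change of −3.06 ± 0.47 after occlusion (edgeR, adjusted p = 0.00525). Both genes were low in each naris occluded library and in between in each trained library, with no overlap of the 3 groups.

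Cyclin B1 and its kinase gave different calls. Ccnb1 was at 17.4 and 16.7 CPM in the controls, 0.855 and 2.19 after occlusion and 8.69 and 6.34 after training, a log2 fold change of −3.37 ± 0.58 (edgeR, adjusted p = 0.0169), which was −4.19 and no longer called without naris occluded 2 (edgeR, adjusted p = 0.21). In UMIs that was 21 and 13, then 1 and 3, then 9 and 7. Cdk1 was at 9.93 and 19.2 CPM in the controls, 1.71 and 5.1 after occlusion and 8.69 and 13.6 after training, and did not pass the test (log2 fold change −1.95 ± 0.58, edgeR adjusted p = 0.73, and −2.97 without naris occluded 2 to −1.41 without naris occluded 1). Its naris occluded libraries lay below its controls and its trained libraries overlapped them.

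Of the kinetochore genes, Cenpa, the histone variant that marks centromeres, was at 26.5 and 32 CPM in the controls, 5.13 and 3.64 after occlusion and 12.6 and 17.2 after training, with a log2 fold change of −2.72 ± 0.41 (edgeR, adjusted p = 0.00456). Cenpf, a large protein of the outer kinetochore, was at 34.7 and 44.8 CPM, 5.13 and 8.01 CPM, and 21.2 and 27.2 CPM in the same order, with −2.54 ± 0.34 (edgeR, adjusted p = 0.00168). Neither gene's groups overlapped. Cenpe, a kinetochore motor, missed the threshold (log2 fold change −3.17 ± 0.63, edgeR adjusted p = 0.0673), and so did Spc25 (adjusted p = 0.49). Spc24, which binds Spc25, differed less, at 13.2 and 12.8, 12 and 8.01, and 7.73 and 9.06 CPM.

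Top2a was at 33.1 and 60.2 CPM in the controls, 10.3 and 8.01 after occlusion and 35.7 and 17.2 after training, with a log2 fold change of −2.30 ± 0.39 after occlusion (edgeR, adjusted p = 0.0167). One trained library lay within the control range and the other below it. Hmmr, a protein that organizes the spindle, had 18 and 9 UMIs in the controls, 0 and 0 after occlusion and 13 and 5 after training (edgeR, adjusted p = 0.0167). A count of 0 was taken as at most 3 UMIs over both naris occluded libraries pooled. With the 27 UMIs of the pooled controls taken as exact, the level was then at least 11.5-fold lower than in the controls. This limit covers counting error only. It leaves out the spread between libraries and the sharing of few cells by many UMIs.

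Mki67 stood apart from the called genes in the same cells. It was at 19 and 29.5 CPM in the controls, 18.8 and 17.5 after occlusion and 21.2 and 19.9 after training, with a log2 fold change of −0.38 ± 0.31 after occlusion (edgeR, adjusted p = 1). In UMIs the 4 control and naris occluded libraries held 22 to 24 each. Of its 136 UMIs in n04-Immature, 71 lay in the 35 cells with mitotic RNA (424 CPM) and 65 in the other 3875 cells (9.99 CPM). Of the 166 UMIs of Top2a, 161 lay in the 35 cells and 5 in the others. Both genes counted toward the choice of the 35 cells.

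**Figure D4:**
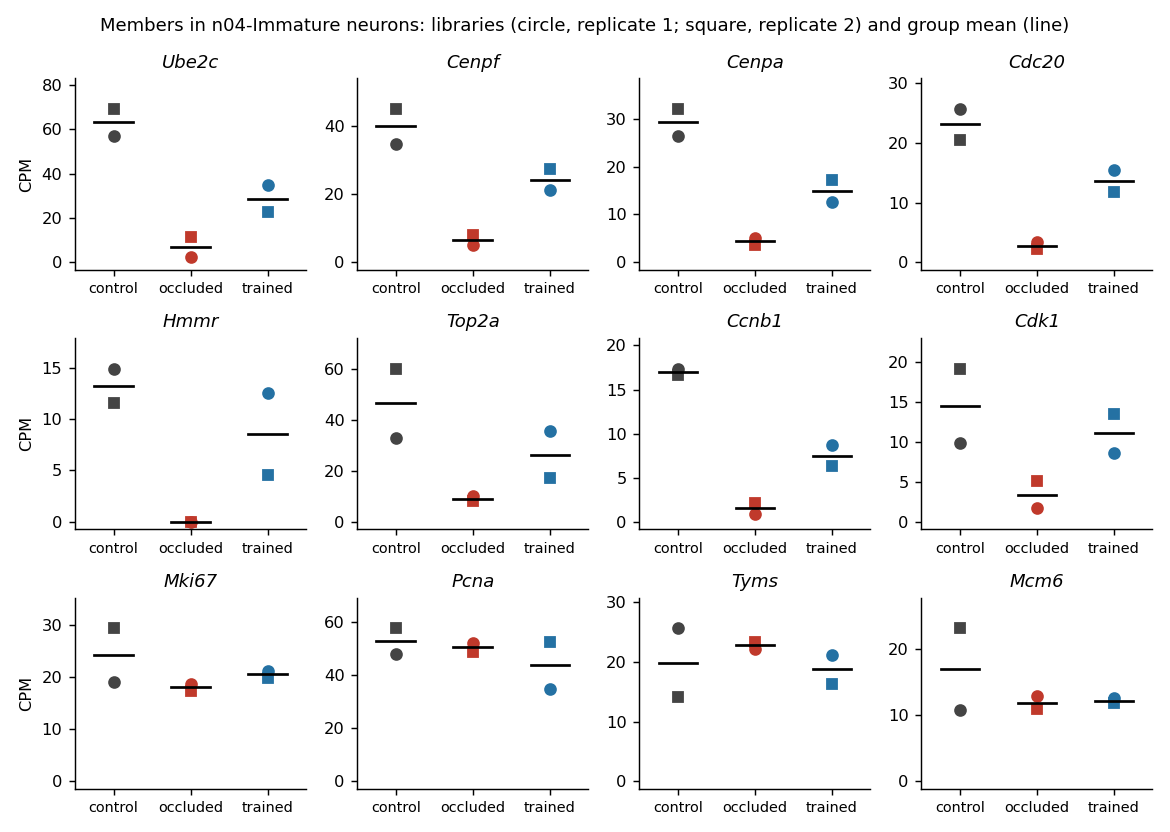
CPM (vertical axis, from 0) of 12 genes in n04-Immature by condition, with a circle for replicate 1, a square for replicate 2 and a line for the group mean. The first 7 genes, Ube2c to Ccnb1, were called lower after occlusion, with both red points below both grey ones. Mki67, Pcna, Tyms and Mcm6 in the bottom row have naris occluded points within or close to the range of the controls.

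Training was not called different from control in n04-Immature. By edgeR's quasi-likelihood test 0 of the 27 genes tested had an adjusted p under 0.05 (11 at an unadjusted p under 0.05, against 5.25% of all genes), DESeq2 gave 0, and of all 9312 genes 0% were called. Ube2c had a log2 fold change of −1.13 ± 0.30 (edgeR, adjusted p = 0.92) and Top2a one of −0.76 ± 0.33 (edgeR, adjusted p = 0.94). With 1 library left out the values ran from −1.47 to −0.84 for Ube2c and from −1.38 to −0.31 for Top2a. Of the 31 mitosis genes 18 had both trained libraries below both controls and 0 above, against 14.2% and 15.1% of all genes with a UMI. Trained against naris occluded gave 0 called of 27 with edgeR (16 at an unadjusted p under 0.05, against 6.65% of all genes) and 0 with DESeq2, with 0.0107% of all genes called. Here 24 of the 31 mitosis genes had both trained libraries above both naris occluded ones and 0 below, against 14.1% and 16.4% of all genes with a UMI. The comparisons share libraries and the genes share cells, so neither the comparisons nor the genes are independent.

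The calls in n04-Immature rest on a small group of cells. In the annotation of the whole bulb, n04 cells belong mainly to clusters N1 (3283 cells) and N3 (448 cells), and 20 of the 35 cells with mitotic RNA were in N3 and 15 in N1. N3 cells of n04 had a lower median depth (775 UMIs against 1736) and a higher mitochondrial share (15.4% against 8.09%). The summed mitosis genes in N3 were at 4055 and 4541 CPM in the controls, 1171 and 63.4 CPM after occlusion and 1594 and 1036 CPM after training, with 5, 5, 3, 0, 3 and 4 cells with mitotic RNA. In N1 the same sum was at 120 and 232, 66.3 and 130, and 274 and 227 CPM, and control and naris occluded libraries overlapped. N3 made up 12.3% and 13.3% of n04 cells in the controls, 10.5% and 7.24% after occlusion and 15.1% and 12.5% after training. With N1 cells alone edgeR called 0 of the 12 genes that could be tested (3 at an unadjusted p under 0.05), and 1 of all 8830 genes (315 at an unadjusted p under 0.05). Without any 1 library the number of genes called was 4 (without control 1), 3 (without control 2), 3 (without naris occluded 1), 2 (without naris occluded 2) and 15 without either trained library. Of all genes tested the same fits called 6, 7, 7 and 3 in that order, and 34 and 33 without trained 1 and trained 2. Without the cells of shared barcodes, 7 genes of the list were called, of 10 genes in all.

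Of the 4 replication genes that could be tested in immature neurons, edgeR called 0 after occlusion, against 0.107% of all genes tested. At an unadjusted p under 0.05 there was 1, against 4.4% of all genes tested. The sum of all 9 was 142 and 195 CPM in the controls, 133 and 114 CPM after occlusion and 105 and 119 CPM after training. Both manipulated groups lay below both controls and overlapped each other. Pcna was at 48 and 57.6, 52.2 and 48.8, and 34.8 and 52.5 CPM, with a log2 fold change of −0.07 ± 0.22 after occlusion (edgeR, adjusted p = 1). Tyms, thymidylate synthase, was at 25.6 and 14.1, 22.2 and 23.3, and 21.2 and 16.3 CPM, with 0.11 ± 0.31 (edgeR, adjusted p = 1). Mcm6, a helicase subunit, was at 10.8 and 23.1, 12.8 and 10.9, and 12.6 and 11.8 CPM, with −0.44 ± 0.41 (edgeR, adjusted p = 1). Mcm2, another subunit, had 9 and 8, 9 and 8, and 2 and 5 UMIs and did not pass the filter. Of the 9 replication genes, 3 had both naris occluded libraries below both controls and 0 above, against 12.2% and 16.6% of all genes with a UMI. Rrm2 was one of these, at 33.1 and 52.5, 22.2 and 10.9, and 21.2 and 20.8 CPM, and was not called. Within n04-Immature, 115 of 167 Rrm2 UMIs but 46 of 325 Pcna UMIs lay in the 35 cells with mitotic RNA.

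Other genes of the cycle were read from 4 further lists. Of 70 further mitosis genes, 27 passed the filter in n04-Immature and 2 were called lower after occlusion, Hmgb2 and Cks2. Of all genes tested 0.107% were called. At an unadjusted p under 0.05, 8 of the 27 were lower and 0 higher. Hmgb2, a chromatin protein abundant in dividing cells, was lower by a log2 fold change of −1.80 ± 0.14 (edgeR, adjusted p = 9.36e-07) and was the gene of all 9312 with the smallest p. It was also the 1 gene called in trained against naris occluded, higher by 1.06 ± 0.14 (edgeR, adjusted p = 0.00522). Cks2, a partner of Cdk1, was lower by −2.17 ± 0.29 after occlusion (edgeR, adjusted p = 0.00168). With the 7 genes of the list, 9 of the 10 genes called were genes of the cycle. The lists were chosen with earlier results of these data known and the genes share cells, so this count is a description only. Within the 35 cells with mitotic RNA Hmgb2 stood at 4570 CPM and outside at 57.8 CPM. The other lists were 59 further replication genes (32 tested), 10 genes of the cyclin D step (7 tested) and 18 brakes of the cycle (14 tested). In them edgeR called 0 after occlusion. At an unadjusted p under 0.05 they had 1, 2 and 1 genes in that order, against 4.4% of all genes tested. Their median log2 fold changes were −0.03, −0.13 and −0.01, close to the 0.00 of all genes.

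Over the whole bulb the mitosis genes summed to 111 and 117 CPM in the controls, 89 and 67.4 CPM after occlusion and 81.5 and 78.3 CPM after training. Both manipulated groups lay below the controls and overlapped each other. Cells with mitotic RNA gave 65.2 and 67.1, 41.2 and 19.3, and 39.1 and 26.5 CPM of this, and all other cells 42.4 to 51.8 CPM, again with the cells split by the genes summed. Without the cells of shared barcodes the whole-bulb sums were 115 and 116, 81.5 and 69.2, and 84 and 72.7 CPM, in the same order of groups. The thinned share of such cells was 0.299 ± 0.0257%, 0.152 ± 0.0751% and 0.158 ± 0.0892% (SD, n = 2 each), and without thinning 0.258 ± 0.039%, 0.204 ± 0.119% and 0.154 ± 0.0494%, where control and naris occluded libraries overlapped. By edgeR 0 of 39 genes tested were called after occlusion (17 at an unadjusted p under 0.05, against 4.96% of all genes; DESeq2 0; 0.0064% of all genes called). After training 0 were called (12 at an unadjusted p under 0.05, against 8.58%; DESeq2 0; 0.0064% of all), and between trained and naris occluded 0 (2 at an unadjusted p under 0.05, against 15.1%; DESeq2 0; 0.505% of all). Of the 31 mitosis genes, 22 had both naris occluded libraries below both controls and 0 above, against 13.3% and 22.5% of all 18560 genes. Likewise 21 had both trained libraries below the controls and 0 above, against 16.4% and 20.5%. Between trained and naris occluded, 7 were higher in both trained libraries and 1 lower, against 18.6% and 22.3%. The 31 genes share cells and are not independent of one another. In bulk sums, fewer cells of a dividing type and less RNA per cell cannot be told apart. The replication genes summed to 68.7 and 77.9, 78.9 and 79.6, and 63 and 68.7 CPM, highest in the naris occluded libraries by a small margin.

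In OPC, training rather than occlusion gave the lowest values. The summed mitosis genes were at 947 and 548 CPM in the controls, 555 and 519 CPM after occlusion and 151 and 28.3 CPM after training. The naris occluded libraries overlapped the controls and both trained libraries lay below all 4 others. Without the cells of shared barcodes the same sums were 1049 and 565, 559 and 545, and 152 and 28.3 CPM, and the naris occluded libraries then lay below both controls. The libraries held 4 and 2, 4 and 3, and 3 and 0 cells with mitotic RNA among 48 to 85 OPC each. At 1000 UMIs the shares were 5.17% and 3.64% (3 of 58 and 2 of 55 cells), 7.32% and 3.03% (3 of 41 and 2 of 66), and 1.72% and 0 (1 of 58 and 0 of 40 cells, where 0, taken as 3 cells, allows up to 7.5%), so at this depth a difference was not detectable. Of the 31 mitosis genes 25 had both trained libraries below both controls and 0 above, against 14.6% and 14.1% of all 14607 genes with a UMI in OPC. Against naris occluded, 22 were lower in both trained libraries and 0 higher (17.3% and 11.6% of all). After occlusion, 9 were lower and 3 higher than both controls (13.6% and 15.1% of all). Most UMIs of the mitosis genes in OPC lay in the same 16 cells, so the genes are not independent of one another. Only 4 genes of the list passed the filter, and edgeR called 0 of 4 in each comparison (1 after occlusion, 2 after training and 3 between them at an unadjusted p under 0.05, against 4.66%, 4.9% and 6.1% of all genes; DESeq2 0 in each). The share of all genes called was 0.0868%, 0% and 0.0434% in that order. Ube2c came nearest, with 25 and 12 UMIs in the controls, 2 and 9 after occlusion and 1 and 0 after training, and a log2 fold change of −4.73 ± 0.94 after training (edgeR, adjusted p = 0.113). Without trained 2 it was −3.97 (edgeR, adjusted p = 0.32), and without trained 1 the trained library that is left had 0 UMIs. The replication genes summed to 200 and 157, 249 and 135, and 227 and 113 CPM in OPC and overlapped in all groups.

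In the blood and immune types single libraries decided the values. Monocytes had 806 and 401 CPM in the controls, 1083 and 26.8 CPM after occlusion and 243 and 68.8 CPM after training, with 6 and 5, 4 and 0, and 2 and 0 cells with mitotic RNA. The 2 naris occluded libraries stood at the top and the bottom of all 6, and both trained libraries lay below both controls. Without the cells of shared barcodes they stood at 831 and 436, 809 and 22.7, and 253 and 69 CPM, and the upper naris occluded library then lay within the control range. No test of monocytes was made. Microglia had 59 and 151, 38.5 and 71.9, and 139 and 93.2 CPM, from 1 to 3 cells with mitotic RNA per library. Trained microglia lay above the naris occluded ones and both overlapped the controls. Without the cells of shared barcodes the values were 57.4 and 152, 39.6 and 74.6, and 144 and 28.3 CPM, from 0 to 3 cells with mitotic RNA per library, and trained microglia no longer lay above the naris occluded ones. EdgeR called 0 of 7 genes tested in microglia in each comparison (1, 0 and 0 at an unadjusted p under 0.05, against 4.23%, 4.79% and 6.92% of all genes; DESeq2 0; 0% of all 9254 genes called). Of the 31 mitosis genes, 10 were lower and 2 higher in both naris occluded libraries than in the controls (14.6% and 15.4% of all genes). In trained microglia 2 were lower and 6 higher than in the controls (13.8% and 15.9%), and 0 lower and 17 higher than in naris occluded ones (14.4% and 16.4%). With the cells of shared barcodes left out, the 17 became 5, with 1 lower (16.3% and 14.4% of all genes). The 1 microglial cell with mitotic RNA in trained 2 has such a barcode. In olfactory ensheathing cells, which had 2 cells with mitotic RNA, the sum was 30.5 and 34.6, 43.4 and 31.7, and 29.4 and 36.1 CPM. There edgeR called 0 of 12 genes in each comparison (0 at an unadjusted p under 0.05, against 4.12%, 6.61% and 9.37% of all genes; DESeq2 0 of those it adjusted; 0.00828%, 0% and 0.0166% of all genes called).

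Mki67, Racgap1 and Bub1b had the smallest shares of their UMIs in cells with 3 other mitosis genes, at 17%, 16.6% and 13.2%. Further mitosis genes also had most of their UMIs outside such cells. Among these were Spc24, with 28.5% inside, and 2 genes called after occlusion, Cenpf with 42% and Cenpa with 42.6%. Mki67 (chr7:135689784-135716450) was highest in cluster N3 of the whole bulb, at 102 ± 67.9 CPM (SD, n = 6), from 54 UMIs. Among the neuronal subclusters and the clusters other than neurons it was highest in granule cells of cluster n07-GC-2, with 76 ± 6.2 CPM, and the libraries of N3 ranged on both sides of this value. By library it was at 65 and 83 CPM in the controls, 78.2 and 73.5 after occlusion and 77.3 and 79.1 after training, so the groups overlapped (edgeR log2 fold changes 0.01 ± 0.25 and 0.07 ± 0.23 against control; 0 of 2 genes called in each comparison, 0 at an unadjusted p under 0.05, against 4.39%, 6.63% and 7.65% of all genes, DESeq2 0; 0.0122%, 0.0608% and 0.231% of all genes called). This cluster held 266 UMIs of Mki67, 23.1% of all, and n06-Transition another 118 at 68.8 CPM. A UMI was found in 6.82% of n07 cells, against 0.0833% of olfactory sensory neurons of like depth (median 882 against 808.5 UMIs) and 0.0639% of the deeper Astro1 cells. At 500 UMIs per cell the shares were 3.69%, 0.0833% and 0.0639%. The difference between these types remained at equal depth. Other neurons had Mki67 as well. It was found in 115 of 2085 n06-Transition cells, 111 of 1669 n11-GC-5 cells and 86 of 660 N11 cells. The last 2 clusters were deeper than n07-GC-2, with medians of 2110 and 2169.5 UMIs.

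In neurons of n07-GC-2 Mki67 came alone. Of 246 n07 cells with Mki67, 13 (5.28%) had any other mitosis gene, against 4.76% of the n07 cells without Mki67, and 0 had 3 others. Top2a was found in 2 n07 cells. In n04-Immature, 37.3% of the 83 cells with Mki67 had another mitosis gene against 7.08% of those without, and 90.6% of the 32 cells with Top2a against 8.3%. In OPC 10 of the 18 cells with Mki67, and in monocytes 12 of 19, had at least 3 others. Racgap1 (chr15:99620496-99651656), at 57 CPM in N3, was highest among the subclusters in periglomerular cells n02-PGC-1, at 45.9 CPM, and in n03-GC-1, at 25.9 CPM, against 14.4 CPM in n04-Immature. Of 86 n02 cells with Racgap1, 0 had 3 other mitosis genes, and 16.3% had at least 1 other, against 10.6% of the n02 cells without Racgap1. Bub1b (chr2:118598202-118641592), at 17.7 CPM in N3 from 9 UMIs, was highest among the subclusters in n06-Transition at 11.7 CPM, from 20 UMIs, and in n07-GC-2 it was at 8.53 CPM. Another mitosis gene was found in 16.7% of the 30 n07 cells with Bub1b against 10.5% of those without, and in 62.5% of the 16 N11 cells with Bub1b against 26.2%. Those 16 cells were deep, with a median of 9248.5 UMIs against 2120 in N11 cells without Bub1b, and the part of depth was not tested.

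**Figure D5:**
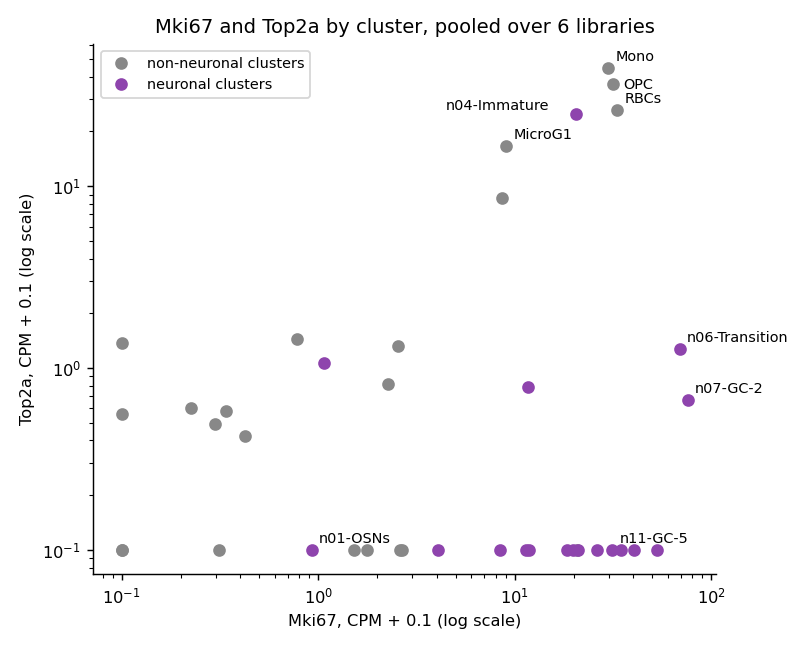
Level of Top2a (vertical axis) against Mki67 (horizontal axis) in each neuronal subcluster and each cluster other than neurons, both as CPM + 0.1 on log scales and pooled over 6 libraries, with neuronal clusters in purple and others in grey. Monocytes, OPC and red blood cells have the most Top2a, 44.5, 36.4 and 26.2 CPM. In n04-Immature Top2a is also high, while Mki67 is not among the highest. Of the clusters plotted, n07-GC-2 and n06-Transition have the most Mki67, 75.6 and 68.8 CPM, with little Top2a.

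Over all 56 clusters of both annotations, 8 of the 9 replication genes had their highest level in N3, among them Pcna at 118 CPM, Tyms at 61 and Mcm3 at 31.5. The limit given above for the shallow cells of N3 holds here too. Among the neuronal subclusters and the clusters other than neurons, types with few cells with mitotic RNA also led. There Mcm3, a helicase subunit, was highest in the microglia cluster MicroG2 at 25.5 CPM, where 3 of 2260 cells had mitotic RNA, and in MicroG1 at 24.9 CPM. Pcna ran from 9.12 CPM in red blood cells, from 8 UMIs, and 10.8 CPM in olfactory sensory neurons to 54 CPM in n16-M/TC-2, 58 CPM in myelinating oligodendrocytes and 62 CPM in OPC. Tyms was highest in n04-Immature at 21 CPM. Ccne2, a cyclin of the entry into replication, was highest in the dopaminergic periglomerular cluster n05-PGC-2 at 17.6 CPM, from 17 UMIs. The replication genes together stood at 485 ± 295 CPM (SD, n = 6) in cluster N3 of the whole bulb. Among the neuronal subclusters and the clusters other than neurons they were highest in monocytes (181 ± 77.9 CPM), OPC (180 ± 53.6 CPM) and n04-Immature (135 ± 32.3 CPM), and these 3 did not differ beyond the spread of their libraries. Red blood cells, at 412 CPM for the mitosis genes, were at 66.8 ± 90.5 CPM for the replication genes.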

How the data were processed

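Cells of the mouse olfactory bulb were measured by droplet RNA sequencing of 3′ ends. The deposited counts are UMI counts per gene and cell, which the authors made with Cell Ranger 2.0.0 on mm10 and filtered with Seurat 2.2.1 (versions from the submitters' processing notes), keeping cells with at least 200 genes and removing doublets. The mitochondrial fraction per cell is also as deposited by the authors, as are the cluster names, of the whole bulb and of the neurons. Each cell's library was taken from the annotation, although all 17275 trained cells had names that start with the other trained library. Following the names instead would exchange the 2 trained libraries, which leaves the groups as they are but would make trained 1 the female library. Of 52549 barcodes, 1123 without a cluster were not used in any comparison.

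Genes of mitosis and replication, the further lists of cycle genes and the marker lists were chosen with earlier results of these data known. UMIs were summed per library and population and tested with edgeR 4.0.16 (TMM, filterByExpr, quasi-likelihood, limma 3.58.1, R 4.3.3). All 6 libraries entered 1 fit, p-values were adjusted by the Benjamini-Hochberg method over all genes tested, and the threshold was an adjusted p of 0.05. DESeq2 1.42.0 was an alternative. The SE is the log2 fold change divided by the square root of F. In simulated counts where 200 genes were shifted by a log2 of 1 in the naris occluded libraries, the comparison with control recovered 47.5% of them in n04-Immature (9110 genes), 70% over the whole bulb (15456 genes), 35% in OPC (4258 genes), 45% in microglia (8985 genes), 70% in olfactory ensheathing cells (11920 genes) and 25% in n07-GC-2 (7857 genes). The shifted genes were drawn at random from all genes tested and simulated independently of one another. The RNA of the mitosis genes sits in few shared cells, so these rates do not give the recovery for the list. A cell with at least 3 mitosis genes was said to have mitotic RNA. Shares were computed after thinning each cell to 1000 UMIs at random, leaving out the 19274 cells (37.5%) below that, with exact (Clopper-Pearson) 95% binomial intervals, and carry no test.

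Named genes were Mki67, Top2a, Cdk1, Ccnb1, Pcna and Mcm2, the genes of the list with the most UMIs (Mki67, Ube2c, Cenpf, Racgap1, Cenpa, Pcna, Tyms, Mcm6), every gene of the list called, up to 3 called genes of each other list, and the 5 genes most like the mitosis sum. Other genes were named after their values were seen. Some of the genes these rules choose are not reported here. The fit of n07-GC-2, the N1 cells alone and the values without shared barcodes were added after seeing the data. Python 3.11.15, numpy 2.4.6, pandas 2.3.3, scipy 1.17.1 and matplotlib 3.10.9 were used.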

Additional observations from a re-analysis of the deposited data

Results flagged for a closer look

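Changes of opposite direction between cell types were seen for 2 sums, and none of these differences was tested. With 2 libraries per group, groups that do not overlap are common among all genes with a UMI. Trained against naris occluded, 16.4% were higher and 14.4% lower in microglia, 14.1% and 16.4% in n04-Immature, and 11.6% and 17.3% in OPC. After occlusion, 15.4% were higher than control in microglia and 12.2% lower in n04-Immature. Opposite directions can therefore arise without any effect of the manipulations. For the summed mitosis genes, every trained library lay above every naris occluded one in n04-Immature, by 198 CPM on average, and in microglia, by 61.1 CPM, while in OPC every trained library lay below, with a difference of −447 CPM. For the summed replication genes, every naris occluded library lay above every control in microglia (a difference of 11.9 CPM, the nearest pair both at 91.4 CPM) and in n07-GC-2 (11.1 CPM), and below in n04-Immature (−45.0 CPM). The mitosis sums rest on 35, 12 and 16 cells with mitotic RNA in n04-Immature, microglia and OPC. With the cells of shared barcodes left out, trained (144 and 28.3 CPM) and naris occluded microglia (39.6 and 74.6 CPM) overlapped for the mitosis genes, and naris occluded (48.2 and 56.3 CPM) and control n07-GC-2 (52.1 and 30.8 CPM) for the replication genes.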

How the results depend on the processing

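In n04-Immature, the number of genes of the list called lower after occlusion was 7, and it was 17 without the filter on low counts, 4 with DESeq2, 0 with cells of cluster N1 alone and 2 to 15 when 1 library was left out, while the calls among all genes were 10, 36, 6, 1 and 3 to 34 in that order. Ube2c and Cenpf kept their call in 12 of 13 other settings and Ccnb1 and Hmmr in 7 of 12. For trained against control in n04-Immature the 0 calls became 1 without the filter and 0 to 2 with 1 library left out, and for trained against naris occluded 6 without the filter and 0 to 6 with 1 library left out. Among all genes these fits called 6 and 0 to 17, and 28 and 0 to 55. Over the whole bulb occlusion gave 1 call without the filter, of 6 among all genes. In OPC training gave 3 calls without the filter, 1 with cells of at least 1000 UMIs and 0 to 1 with 1 library left out, of 4, 1 and 0 to 3 among all genes. The cause of these shifts was not tested. No direction of a called value was reversed.

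Replicate numbers go with the sex read from Xist. No label gives a batch shared by libraries of 1 number, and the study lists its sequencing batches by library. There are 2 numbers per comparison. For each gene the deviation of log2(CPM + 1) from its group mean was taken in the replicate 1 libraries. Over genes, these deviations correlated between 2 groups at 0.0913 to 0.428. With the replicate block, 10 genes of the list were called in n04-Immature after occlusion (17 of all genes), 2 in trained against naris occluded (8 of all genes), and 1 in OPC after training (3 of all genes).

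The share of cells with mitotic RNA, as a difference in percentage points, moved with its definition. For n04-Immature after occlusion it was −0.870 at 500 UMIs, −0.849 with at least 2 genes, −0.856 with at least 5, and −1.79 to −0.878 with 1 library left out. After training it was −0.333, −0.343 and −0.279 in the same order, and −1.21 to −0.301. In OPC after occlusion it was −1.24 at 500 UMIs, −1.57 with at least 5 genes, and −1.37 to 2.91 with 1 library left out, so no direction holds there. In microglia it was −0.363 after occlusion and −0.166 after training with at least 2 genes, and −0.184 to 0.0841 after training with 1 library left out. Over the whole bulb it was −0.0535 after occlusion without thinning and −0.0694 after training at 500 UMIs, and with 1 library left out −0.200 to −0.0939 after occlusion and −0.204 to −0.0777 after training. Few cells with mitotic RNA per library, 0 to 9 in each of n04-Immature, OPC, monocytes and microglia, limit these values.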

Other observations

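Of the 1123 barcodes without a cluster, 2 had at least 3 mitosis genes, the higher with 11. Of the 105 cells with mitotic RNA, 7 had a barcode that also occurred in another library.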
